A study of Drosophila melanogaster with 7 samples.

Results

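The pairs described here are ASH2 peaks and peaks of RNA polymerase II phosphorylated at serine 5 (Ser5P) that share at least 1 bp in chromatin of Drosophila wing imaginal discs. They were selected by that overlap from the complete lists, and 3802 such pairs were found among the 74390 peaks of all 6 lists. The discs, larval sheets of epithelium that become the wing, came from the third larval instar, on standard medium, and the labels name no mutant, transgene or treatment. Each target had 1 chromatin immunoprecipitation sequencing (ChIP-seq) library, so there were no replicates. The question was where along a gene ASH2 lies relative to the polymerase. The labelled catalogue number of the ASH2 antibody belongs to a product against the HA epitope tag, while a tagged strain goes unmentioned, so the name ASH2 rests on the label.

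ASH2 is a trithorax group protein and a core subunit of the COMPASS family of complexes, which methylate histone H3 at lysine 4. The trimethylated form, H3K4me3, marks nucleosomes just inside active genes. RNA polymerase II is phosphorylated at serine 5 of its C-terminal repeat around initiation and promoter-proximal pausing, and at serine 2 (Ser2P) as it elongates. H3K36me3 is laid down in the bodies of transcribed genes behind the elongating polymerase, so the side on which it lies is a guide to the direction of transcription. H3K27me3 is the mark of the Polycomb group.

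The deposited lists give only the start and end of each peak on the dm3 build, for arms 2L, 2R, 3L, 3R and X. They hold no heights or read counts, so the depth behind them is unknown. ASH2 contributed 31582 peaks (median width 237 bp) and Ser5P 3732 peaks (692 bp). Since dm3 gene models were not used here, no gene is named and no sequence is shown. All tests below take peaks of single libraries as units. Neighbouring peaks are not independent, so the p values and exact (Clopper-Pearson) 95% intervals cover the counting of peaks alone and err toward too much certainty. For the spread within the lists, values from the 5 chromosome arms are shown as ranges.

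Most Ser5P peaks with ASH2 met a single ASH2 peak. The pairs comprised 3272 of the 3732 Ser5P peaks and 3660 of the 31582 ASH2 peaks. Of the Ser5P peaks, 2772 met 1 ASH2 peak, 472 met 2, 26 met 3 and 2 met 4. On the ASH2 side, 3521 peaks met 1 Ser5P peak, 136 met 2 and 3 met 3. Few pairs depended on the 1 bp limit. Just inside it, 247 pairs shared 50 bp or less, and just outside it 38 Ser5P peaks had an ASH2 peak ending within 50 bp without touching. For the 460 Ser5P peaks without ASH2, the gap to the nearest ASH2 peak had a median of 476 bp (quartiles 203 and 1065), and it was under 500 bp for 237 of them.

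Within pairs the peaks lay close to each other but were seldom concentric. The distance between the midpoints had a median of 231 bp (quartiles 98 and 440.5, arms 214 to 256.5), and the overlap rule and the widths bound it from above. The midpoints lay within 100 bp of each other in 25.5% of pairs, within 250 bp in 52.9%, within 500 bp in 79.2% and within 1000 bp in 95.4%. The pairs shared a median of 411.5 bp. Ser5P covered a median of 74.9% of the ASH2 peak (quartiles 44.4 and 99.5), and ASH2 covered 61.5% of the Ser5P peak (29.6 and 94.1). The ASH2 midpoint fell inside the Ser5P peak in 75.8% of pairs, and the Ser5P midpoint inside the ASH2 peak in 62.7%. Before orientation no preferred direction was detected over all pairs, and Ser5P lay at the higher coordinate in 51.1% of them (95% interval 49.5 to 52.7).

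The commonest arrangement was a stagger, in which each peak reached past the other at 1 end. It held for 2141 pairs or 56.3% (95% interval 54.7 to 57.9, arms 54.0 to 58.1). ASH2 lay wholly inside Ser5P in 931 pairs (24.5%, interval 23.1 to 25.9) and Ser5P wholly inside ASH2 in 730 (19.2%, interval 18.0 to 20.5). Which kind of nesting was the more frequent turned with how ASH2 was cut into peaks. After ASH2 peaks within 200 bp were joined, ASH2 lay inside Ser5P in 20.3% of pairs and Ser5P inside ASH2 in 25.6%. Staggered midpoints were farthest apart, with a median of 323.5 bp, against 146.5 bp where ASH2 was inside Ser5P and 116 bp where Ser5P was inside ASH2. Before orientation, Ser5P lay at the higher coordinate in 54.7% of pairs with ASH2 inside Ser5P (interval 51.4 to 57.9). This share was 49.7% with Ser5P inside ASH2 and 49.9% in staggered pairs.

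By Ser5P width the pairs divided as follows. Width bounds which peak can contain the other, so these shares describe the classes and are no separate result. Among Ser5P peaks under 500 bp, 36.6% of pairs had Ser5P inside ASH2 and 12.1% had ASH2 inside Ser5P. Among those of 2000 bp or more the shares were 0.654% and 51.0%. The ASH2 peaks in these classes had median widths of 573 and 719.5 bp. The midpoint distance was 146.5 bp in the narrowest class and 870 bp in the widest. The marks also differed between the kinds of nesting. Ser2P overlapped either peak in 54.6% of pairs with ASH2 inside Ser5P and in 28.5% of pairs with Ser5P inside ASH2, and H3K36me3 did so in 33.3% and 17.5%. H3K4me3 went the other way, at 58.9% and 74.8%.

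Pairs were then oriented by the nearest H3K36me3 midpoint within 5 kb of the ASH2 midpoint. Such a midpoint existed for 2271 pairs (59.7%), against 32.7% of all ASH2 peaks, and an H3K4me3 midpoint for 2987 pairs (78.6%), against 41.3% of all ASH2 peaks. H3K36me3 lay a median of 1413 bp from ASH2 and H3K4me3 340.5 bp. The axis stands in for the strand of transcription, which was not read from gene models, and H3K36me3 midpoints lay on 1 side only in 54.4% of the 2271 pairs. On this axis Ser5P was displaced from ASH2 toward H3K36me3, mainly in pairs whose ASH2 peak overlapped H3K36me3. The Ser5P midpoint lay on the H3K36me3 side in 1406 of 2270 pairs with unequal midpoints, or 61.9% (exact binomial test against 50%, two-sided, adjusted over both marks, p = 3.75e-30). In the pairs with H3K36me3 midpoints on 1 side only the share was 60.4% of 1236. Over all oriented pairs it was above 50% on 5 of 5 arms, from 58.3% on X to 66.2% on 2L. The displacement was small, with a median of 92 bp toward H3K36me3 (95% interval of the median 75.5 to 109.5, quartiles -117.5 and 371.5), so pairs with Ser5P on either side were common. The same measure taken toward H3K27me3 gave 47.8% of 1688 pairs (arms 44.4 to 51.9). Distances to H3K27me3 were not matched to those to H3K36me3, so these shares are not directly comparable.

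**Figure D1:**
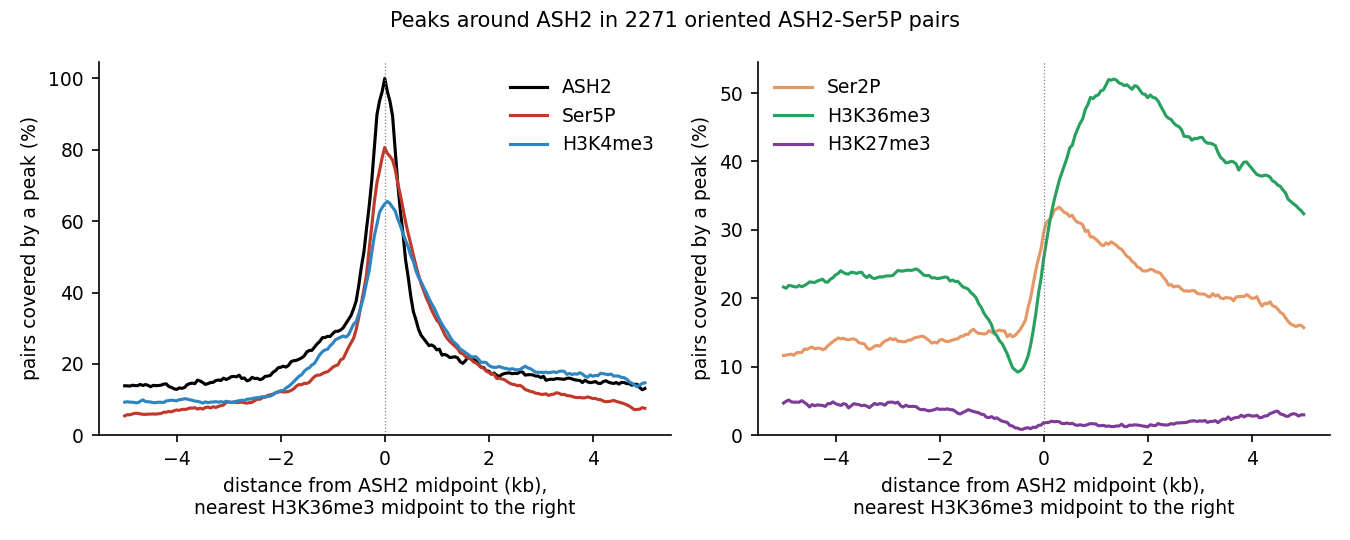
Share of the 2271 oriented pairs covered by a peak of each list at each distance from the ASH2 midpoint (x axis in kb, nearest H3K36me3 midpoint to the right). Left, ASH2 (black), Ser5P (red) and H3K4me3 (blue); right, Ser2P (orange), H3K36me3 (green) and H3K27me3 (purple), where the H3K36me3 curve is one-sided because it set the axis; at 500 bp Ser5P covers 53.6% of pairs on the H3K36me3 side and 33.1% on the other.

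Around ASH2, peaks of Ser5P, H3K4me3 and Ser2P covered more pairs on the H3K36me3 side. At 500 bp from the ASH2 midpoint, Ser5P peaks covered 53.6% of pairs on the H3K36me3 side and 33.1% on the other side. H3K4me3 covered 50.3% and 34.0%, and Ser2P 32.0% and 15.0%. ASH2 peaks themselves were closer to even, at 39.0% and 42.0%. At 1000 bp the order for ASH2 was the same, 24.0% on the H3K36me3 side and 28.5% on the other, whereas Ser5P covered 32.2% and 19.1%. Ser2P coverage was highest at 300 bp from the ASH2 midpoint on the H3K36me3 side, and H3K4me3 coverage at 50 bp. H3K27me3 covered few pairs and had no one direction, with 1.67% on the H3K36me3 side and 1.06% on the other at 500 bp, and 1.67% and 2.73% at 1000 bp.

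The edges of the peaks described the same displacement on the same H3K36me3 axis and are no separate result. Where Ser5P passes ASH2 on the H3K36me3 side only, its midpoint must lie on that side, and likewise for the other side. The test on edges therefore restates the midpoint share, which in staggered pairs was 66.2% (815 of 1231). The midpoint share was 65.3% of 554 pairs with ASH2 inside Ser5P. With Ser5P inside ASH2 it was 47.2% of 485 pairs (95% interval 42.7 to 51.8), so no displacement toward H3K36me3 was seen in that class. Ser5P reached past ASH2 on the H3K36me3 side only in 818 pairs and on the other side only in 418, while 550 pairs had Ser5P past ASH2 at both ends and 485 at neither. Among the 1236 pairs that differed between their ends, the H3K36me3 side thus made up 66.2% (95% interval 63.5 to 68.8, exact McNemar test, two-sided, p = 2.33e-30). Over the arms this share ran from 61.4% on X to 70.7% on 2L. On the H3K36me3 side the Ser5P edge lay a median of 59 bp beyond the ASH2 edge (quartiles -117 and 581). On the other side it stopped 30 bp short of it (median -30, quartiles -239.5 and 116.5).

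The displacement was concentrated in pairs with H3K36me3 close by. Ser5P lay on the H3K36me3 side in 77.3% of 370 pairs with the H3K36me3 midpoint within 500 bp and in 74.4% of 434 at 500 to 1000 bp. The share was 55.4% at 1000 to 2000 bp, 59.6% at 2000 to 3000 bp and 47.9% at 3000 to 5000 bp (95% interval 42.9 to 52.9). Over all pairs at 1 to 5 kb it was 54.4% (exact binomial, adjusted p = 0.000904), a setting added after the data were seen. Where the ASH2 peak itself overlapped H3K36me3, the share was 75.8% of 982 pairs, with a median displacement of 288.5 bp. Where it did not, the share was 51.4% of 1288 pairs (95% interval 48.6 to 54.2) and the displacement 7.25 bp (interval -5.5 to 24.5). Ser5P peaks were also wider in the first of these groups, with a median of 1243 bp against 636.5 bp, and the part of that width in the difference was not tested. Where ASH2 overlaps H3K36me3, the side of the mark's midpoint need not follow the strand. The displacement in those pairs is therefore not shown to run along transcription.

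Because the ASH2 midpoint served both for the side of the mark and for the displacement, the sides were also read from other points, again as an addition made with the data in view. Read from the Ser5P midpoint, 59.8% of pairs had Ser5P on the H3K36me3 side, and from the mean of both midpoints 64.0%, so the direction toward H3K36me3 held at each of these points. It did not hold for H3K4me3. Read from the ASH2 midpoint, Ser5P lay on the H3K4me3 side in 1925 of 2985 pairs, or 64.5% (exact binomial, adjusted p = 8.18e-57, arms 61.8 to 67.9). From the mean of both midpoints this was 58.4%, and from the Ser5P midpoint it was 42.0%, on the other side of 50%. By distance, the readings from ASH2 and from Ser5P were 64.0% and 42.0% within 500 bp of H3K4me3, and 72.3% and 28.9% at 500 to 1000 bp. The side of H3K4me3 thus depended on the point it was read from, and the cause was not tested. The readings from ASH2 and from Ser5P each share their point with the displacement. H3K4me3 lay a median of 340.5 bp from ASH2, near the midpoint distance of 231 bp within pairs. At such distances 50% is not a neutral share, so the test against 50% cannot decide the direction toward H3K4me3. For H3K36me3 midpoints within 1 kb of ASH2, 50% may likewise not be neutral, so agreement of the readings there does not decide the direction. Those pairs also enter the share of 61.9% and its test. With H3K36me3 midpoints at 1 to 5 kb the share was 54.4%.

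**Figure D2:**
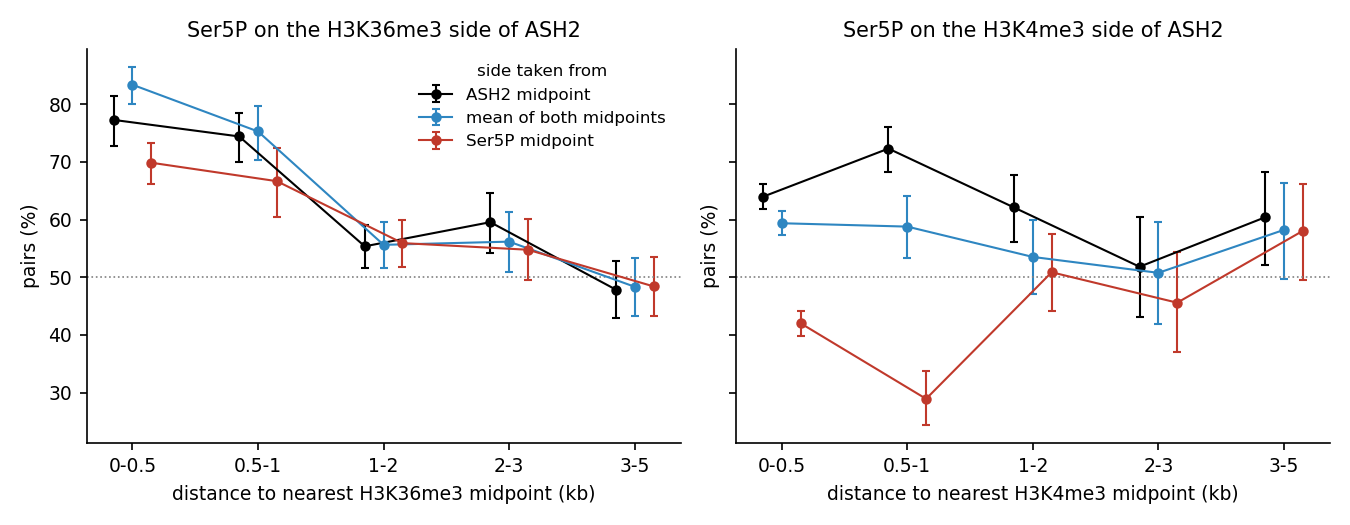
Percentage of pairs with the Ser5P midpoint on the side of the nearest H3K36me3 (left) or H3K4me3 midpoint (right), by distance to that midpoint in kb; bars are exact 95% intervals and colours give the point from which the side was read. Within 1 kb of H3K36me3 all 3 readings lie between 66.7% and 83.4%, whereas for H3K4me3 the reading from the Ser5P midpoint falls to 28.9% at 0.5 to 1 kb.

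Ranking 3 midpoints along the chromosome gives no weight to which peak is read first. It uses the same midpoints as the readings above and is no separate result. With ASH2, Ser5P and the H3K36me3 midpoint nearest to the pair, Ser5P was the one in the middle in 57.6% of 2273 trios, ASH2 in 34.2% and H3K36me3 in 8.14%. With H3K4me3 in place of H3K36me3, Ser5P was in the middle in 40.1% of 2979 trios, ASH2 in 30.7% and H3K4me3 in 29.2%. In 2153 pairs both marks lay within 5 kb, on the same side of ASH2 in 61.8%. Of those with unequal midpoints, Ser5P lay on the side of the marks in 74.9% of 1329, and in the 823 with the marks on opposite sides of ASH2 it lay on the H3K36me3 side in 42.3%. This contrast turned with the reading point, as the H3K4me3 side did. Read from the Ser5P midpoint, the shares were 53.2% of 1008 same-sided pairs and 66.6% of 1139 pairs with the marks on opposite sides. From the mean of both midpoints they were 72.8% of 1281 and 52.4% of 874. No difference between same-sided and opposite-sided pairs is therefore drawn. Among the pairs same-sided from ASH2, the order ASH2, H3K4me3, Ser5P, H3K36me3 was found in 419 of the 1330 and the order ASH2, Ser5P, H3K4me3, H3K36me3 in 360. In 333 pairs Ser5P lay behind ASH2, on the side away from both marks.

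The displacement was larger in pairs whose Ser5P peak overlapped a Ser2P peak. Ser5P lay on the H3K36me3 side in 71.0% of 1116 pairs with Ser2P and in 53.2% of 1154 without it, a difference of 17.8 percentage points (95% interval 13.8 to 21.6, two-sided Fisher's exact test with adjustment for 3 comparisons, p = 8.42e-18). It was 10.5 points when sides were read from the Ser5P midpoint and 7.98 points for H3K36me3 midpoints at 1 to 5 kb, and passed the test in both. The share with Ser2P was above 50% on 5 of 5 arms (68.6 to 73.2%), and that without it on 4 of 5 (48.4 to 58.5%). The median displacement toward H3K36me3 was 227.5 bp with Ser2P (95% interval 184 to 262) and 22.2 bp without it (2 to 37). The difference was on the H3K36me3 side of the peaks. With Ser2P, the Ser5P edge lay a median of 382 bp past ASH2 on that side and 13 bp short of it on the other. Without Ser2P it stopped 16 bp short on the H3K36me3 side and 45.5 bp short on the other.

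**Figure D3:**
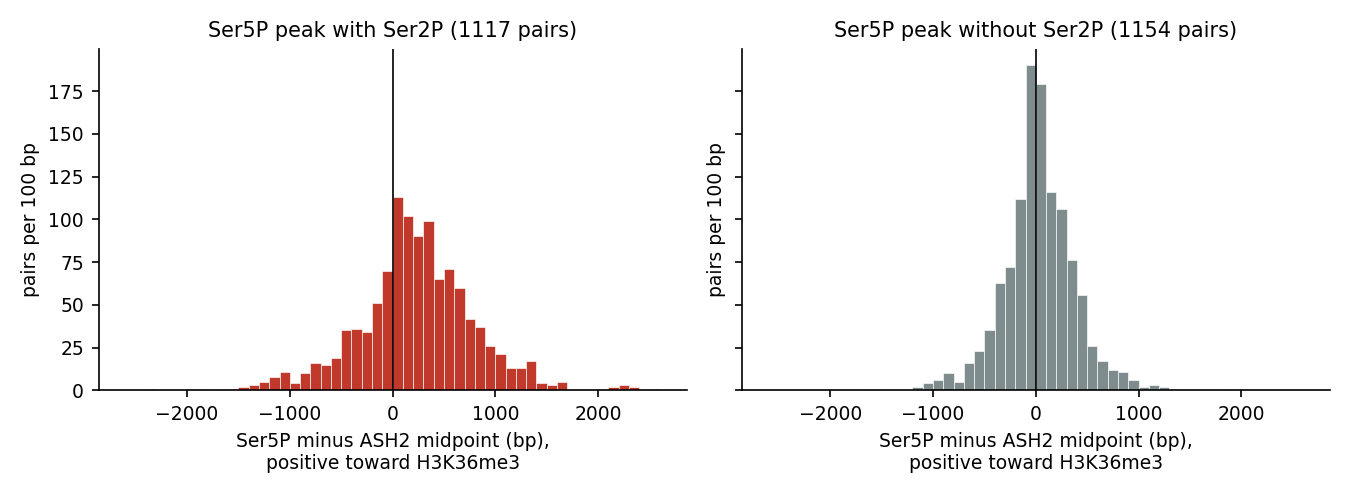
Displacement of the Ser5P midpoint from the ASH2 midpoint in 100 bp bins (x axis in bp, positive toward the nearest H3K36me3 midpoint; y axis, number of pairs), for 1117 pairs whose Ser5P peak overlaps Ser2P (left) and 1154 whose peak does not (right). With Ser2P the counts lean to the right with a median of 227.5 bp, and without it they centre near 0 with a median of 22.2 bp.

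Ser5P peaks that overlap Ser2P were also wider, with a median of 1208 bp against 610.5 bp without Ser2P, so both groups were read within classes of width. Among Ser5P peaks of 500 to 1000 bp, 64.7% of 348 pairs with Ser2P and 51.5% of 517 without it had Ser5P on the H3K36me3 side, with 95% intervals of 59.4 to 69.7 and 47.0 to 55.8. At 1000 to 2000 bp the shares were 73.4% of 481 with Ser2P and 63.5% of 200 without it, with intervals of 69.2 to 77.3 and 56.4 to 70.2 that overlap. At 2000 bp or more they were 80.5% of 220 with Ser2P and 77.4% of 31 without it, and under 500 bp 55.2% of 67 and 48.5% of 406, and the intervals overlap in these classes as well. The intervals were thus apart in 1 of 4 classes, but overlap of intervals does not test a difference. The share with Ser2P was the higher in each of the 4 classes. Over all pairs, the share went from 49.5% under 500 bp and 56.8% at 500 to 1000 bp to 70.5% at 1000 to 2000 bp and 80.1% above. The differences within classes were not tested. Pairs were not split by Ser2P and by ASH2 overlap with H3K36me3 together. How far these splits hold the same pairs was not tested.

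**Figure D4:**
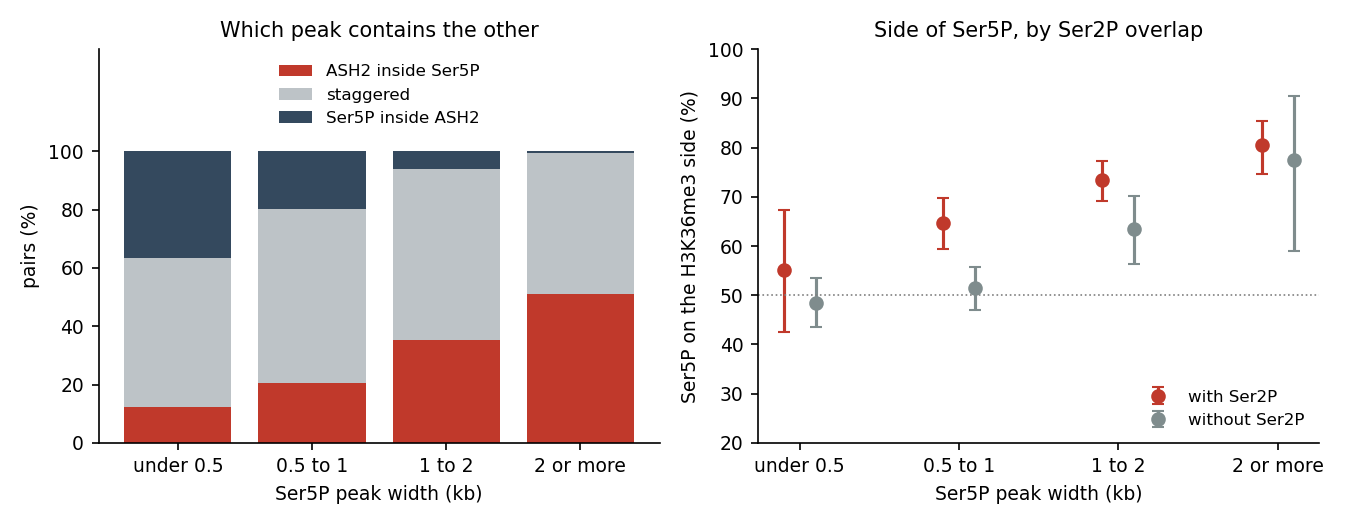
Left, stacked percentage of all 3802 pairs with ASH2 inside Ser5P (red), staggered (grey) or Ser5P inside ASH2 (dark blue), by Ser5P width in kb. Right, percentage of oriented pairs with Ser5P on the H3K36me3 side, with Ser2P (red) and without it (grey), with exact 95% intervals; ASH2 inside Ser5P goes from 12.1% in the narrowest class to 51.0% in the widest, and the share with Ser2P is 80.5% in the widest class.

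Ser5P was set against the other partners of ASH2 on the same axis. Of the Ser5P partners 61.9% lay on the H3K36me3 side of ASH2, against 63.1% of 4681 H3K4me3 partners, a difference of -1.13 points (95% interval -3.56 to 1.29, Fisher's exact test, adjusted p = 0.369). Against Ser2P partners, 72.6% of 1897, Ser5P was lower by 10.7 points (difference -10.7, interval -13.5 to -7.86, Fisher's exact test, adjusted p = 3.97e-13). The median displacement toward H3K36me3 was 92 bp for Ser5P, 103 bp for H3K4me3 and 286 bp for Ser2P. The distances from ASH2, regardless of direction, were 231 bp, 251 bp and 387 bp. An ASH2 peak could enter more than 1 of these groups, which the test treats as independent. Both differences depended on where sides were read. From the partner's midpoint, the difference from H3K4me3 was -6.70 points and passed (Fisher's exact test, adjusted p = 1.71e-07), and that from Ser2P was -4.47 points (Fisher's exact test, adjusted p = 0.00321).

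Single pairs show how far the arrangement varied. On 3L an ASH2 peak from 9418883 to 9421608 (2726 bp) contained a Ser5P peak from 9419118 to 9421604 (2487 bp), with midpoints 115.5 bp apart and the order ASH2, Ser5P, H3K4me3, H3K36me3. On 3R the ASH2 peak from 1449329 to 1451573 and the Ser5P peak from 1449366 to 1451681 shared 2208 bp, in the same order, with midpoints 72.5 bp apart. On X the peaks from 8136412 to 8138536 (ASH2) and from 8136388 to 8138517 (Ser5P) differed by 21.5 bp in midpoint. These pairs were almost coextensive, and were printed for their order. The longest overlap of all, 3294 bp on 2R, had Ser5P away from H3K36me3. There the ASH2 peak ran from 7779345 to 7782928 and the Ser5P peak from 7779415 to 7782708, with an oriented displacement of -75 bp. The farthest midpoints, 2570 bp apart, were on 3L, where an ASH2 peak from 9449024 to 9452052 met a Ser5P peak from 9446576 to 9449360 over 337 bp, with Ser5P on the H3K36me3 side. On 2L the ASH2 peak from 2749325 to 2752274 met the Ser5P peak from 2752004 to 2754279 over 271 bp, and Ser5P lay 2342 bp from it on the side away from H3K36me3. On X an ASH2 peak of 446 bp, from 3750516 to 3750961, lay near 1 end of a Ser5P peak of 5757 bp, from 3745498 to 3751254.

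Pairs with neither mark nearby had close midpoints and narrow Ser5P peaks. In 697 pairs (18.3%) neither H3K36me3 nor H3K4me3 had a midpoint within 5 kb. Their midpoints lay a median of 166.5 bp apart and their Ser5P peaks were 576 bp wide, with 95% intervals of 148.5 to 185 bp and 553 to 604 bp. The 118 pairs with H3K36me3 alone had 221 bp (160.5 to 289) and 619 bp (503 to 694), intervals that overlap these. The 834 pairs with H3K4me3 alone had 222 bp (200 to 241) and 662 bp (630 to 702). H3K27me3 overlapped either peak in 26.8% of these 697 pairs (95% interval 23.6 to 30.3), against 13.8% of all pairs, and Ser2P in 30.3% against 45.6%. The H3K27me3 share was not particular to them. Among the 1531 pairs without an H3K36me3 midpoint within 5 kb, which include these 697, it was 24.1% (22.0 to 26.3), and that of Ser2P 35.4%.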

How the data were processed

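Per the labels' protocols, each immunoprecipitation of wing disc chromatin took 2 µg antibody, and 1 library per target (7 with the input, which was not analysed here) was assigned by the antibody in its label. The authors deposited peak starts and ends in bp (dm3, per the submitters' processing notes). Which peak caller was used, its settings, the aligner and the control were not given in the sources used here. Starts were raised by 1 bp for printing. Entries with equal start and end (306 for ASH2) counted as 1 bp.

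Pairs overlapped by at least 1 bp. The side of a mark was that of its nearest midpoint within 5 kb of the ASH2 midpoint, and ties in midpoints were left out. Shares carry exact intervals, medians order-statistic intervals, and differences Newcombe intervals, at 95%. Tests were two-sided at 0.05 with Benjamini-Hochberg adjustment within each family (Python 3.11.15, scipy 1.17.1). The code was tested on simulated lists in which the mark lay farther away than the simulated displacement. That check does not cover marks as close as the displacement itself. Alternatives are in the closing section. Printed positions follow a rule: 3 pairs each of longest overlap, largest midpoint distance, ordered midpoints and Ser5P on the other side, 3 Ser5P peaks with the most ASH2 peaks and the 3 widest without any; the text prints those that illustrate a comparison. Members, splits and tests were chosen with earlier results of these data known. The RefSeq gene table supplied is of a newer build than dm3, so genes and sequences were not used here.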

Additional observations from a re-analysis of the deposited data

How the results depend on the processing

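No paired analysis was possible because each target had 1 library. The shares of Ser5P on the H3K36me3 side and of Ser5P reaching past ASH2 there kept their direction and passed the tests in each setting. They were lowest when the nearest point of an H3K36me3 peak clear of the ASH2 midpoint set the side (54.0% and 58.6%). Splits of the pairs in which the midpoint share was near 50% were not among these settings. That share was 51.4% of 1288 pairs with ASH2 clear of H3K36me3 (95% interval 48.6 to 54.2). It was 47.2% with Ser5P inside ASH2 and 49.5% with Ser5P peaks under 500 bp. The share from the edges restates that from the midpoints, so its direction adds no separate result. Leaving out each arm in turn gave 61.0 to 62.8% for the share of Ser5P midpoints on the H3K36me3 side and 226.75 to 237.5 bp for the midpoint distance. Geometry depended on what counts as a peak or pair. With at least 50% of the ASH2 peak overlapped, the distance was 163.5 bp, ASH2 lay inside Ser5P in 34.4%, Ser5P inside ASH2 in 13.4%, 52.1% were staggered and ASH2 was covered over 90.2%. With 1 pair per Ser5P peak (1 per ASH2 peak for other partners) the values were 194.5 bp, 22.9% and 22.3%, with Ser5P covered over 71.5%. In the wider 50% of both lists they were 327 bp, 28.3%, 9.87% and 61.8%, with 85.3% of ASH2 and 48.3% of Ser5P covered. ASH2 peaks of at least 100 bp gave 21.7% inside Ser5P, 58.2% staggered, and 72.5% and 64.9% covered. Joining ASH2 peaks within 200 bp gave 250 bp, 20.3%, 25.6%, 54.1%, and 66.1% and 72.8% covered. The first 50% of entries of each arm, added later, gave 212 bp, 15.9%, 22.0%, 62.1%, and 71.0% and 76.5% covered. The H3K4me3 side turned to 42.0% when read from the Ser5P midpoint, and the share in pairs with the marks on opposite sides turned to 66.6% from there and 52.4% from the mean of both midpoints. The difference between Ser5P and H3K4me3 partners changed sign within 2 kb (0.496 points, not passing) and passed Fisher's exact test read from the partner's midpoint (-6.70 points, adjusted p = 1.71e-07), from the mean of both midpoints (-2.87, p = 0.019) and in the first 50% of entries (-4.33, p = 0.0302); the cause was not tested. Depth is unknown, so a missing peak does not show a missing protein.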

Other observations

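Where 1 Ser5P peak met 2 ASH2 peaks, the ASH2 peaks differed in a way that followed the direction of H3K36me3. Their midpoints lay a median of 770 bp apart, and 270 of these 472 Ser5P peaks had an H3K36me3 midpoint within 5 kb of the mean of the ASH2 midpoints and ASH2 peaks of unequal width. The wider ASH2 peak was the one away from H3K36me3 in 175 of the 270 (64.8%, 95% exact interval 58.8 to 70.5, arms 60 to 68.3). Where 1 ASH2 peak met 2 Ser5P peaks, the wider Ser5P peak was the one toward H3K36me3 in 62 of 93 (66.7%), and away from it in 31 (33.3%, interval 23.9 to 43.9). These splits were chosen after the data were seen and were not tested. ASH2 peaks with 2 or more Ser5P peaks were wider, at a median of 1383 bp, than those with 1, at 622 bp. H3K36me3 midpoints lay on both sides within 5 kb for 49.5% of the 97 oriented peaks of the first kind (interval 39.2 to 59.8) and for 45.2% of the 2074 of the second (43.1 to 47.4).

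Ser5P peaks with 4 ASH2 peaks were found at 3R from 9951685 to 9953924 (2240 bp, 60.2% covered by ASH2, the narrowest of the ASH2 peaks an entry of 1 bp) and at X from 1506183 to 1509757 (3575 bp, 53.1% covered).

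Ser5P peaks with an ASH2 peak overlapped H3K4me3 in 62.4% of 3272 (95% exact interval 60.7 to 64.1), against 25.4% of the 460 without ASH2 (21.5 to 29.7). Ser2P went the other way, at 41.6% (39.9 to 43.3) with ASH2 and 57.0% (52.3 to 61.5) without it, and the median Ser5P widths were 693.5 and 674 bp. The widest Ser5P peak without ASH2, on X from 3057449 to 3065101 (7653 bp), ended 223 bp from an ASH2 peak and had Ser2P along 96.0% of its length, H3K27me3 along 30.2% and no H3K36me3. The next widest, on 3L from 8466115 to 8471620 (5506 bp), ended 2697 bp from ASH2, with Ser2P along 97.3% and H3K36me3 along 100%. The one after these, on 2L from 16657433 to 16661783 (4351 bp) ended 28 bp from an ASH2 peak and had Ser2P along 93.3% of its length and H3K36me3 along 99.7%.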
